A study of Mus musculus with 6 samples.

Results

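Cancer-associated fibroblast markers were followed here through 10 genes, Pdgfra, Pdgfrb, Fap, Dcn, Lum, Postn, Thy1, Acta2, Tagln and Pdpn, out of 57462 genes listed for each tumour. The genes were taken by symbol, each symbol matched 1 Ensembl gene, and collagens were left out. They were measured by RNA sequencing of 6 tumours grown from HM1, a murine ovarian cancer line, in what the submitters call an early model. The shControl group held 3 tumours, labelled wild type in genotype and treatment and named for a control hairpin, and the shST3GAL3 group held 3, labelled as an ST3GAL3 knockdown. ST3GAL3 is an enzyme that adds sialic acid to galactose at the ends of glycans. The labels name no hairpin sequence, clone, host strain, age or site of growth, and do not say which cells of a tumour carried the hairpin. They do not tie the 3 samples of a group to separate mice either, so the p-values speak of the variation among these samples, part or all of which may be technical.

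Fibroblasts of a tumour lay down matrix, pull on it and signal to the cells around them, and no single gene marks all of them. PDGF receptors carry the growth signal that recruits and expands them, decorin and lumican organise collagen fibrils, and periostin ties matrix proteins to each other and to cells. Activated fibroblasts can take up smooth muscle actin and transgelin and become contractile, a state known as the myofibroblast. Several of these genes are shared with other cells: Acta2, Tagln and Pdgfrb with mural cells of vessels, Thy1 with T cells, and Pdpn with lymphatic endothelium and mesothelium.

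Values are TPM, a relative abundance corrected for gene length, and give no read depth. St3gal3 stood at 13.79 to 14.03 TPM in the shControl tumours and at 6.77 to 8.44 TPM in the shST3GAL3 tumours, with no overlap, and its direction was that of the labels. The tumour shST3GAL3 1 stood apart from the rest. All 10 markers were highest there, as were 28.7% of the 14207 genes tested, and of the 4 epithelial genes tested Krt8 and Krt18 were lowest there, at 728.22 and 641.34 TPM, while Cdh1 and Esr1 were highest, at 9.46 and 2.21 TPM. The changes of the 10 markers are therefore given with and without this tumour, as are the medians of the gene lists where they are printed and it moved them by over 1.5 times. In bulk tissue a larger number of fibroblasts and more RNA of a gene in each fibroblast cannot be told apart. Nor can either be told apart from RNA of these genes in other cells, tumour cells included.

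All 10 markers had a higher mean in the shST3GAL3 tumours, and all 10 log2 fold changes were above 0, as were 52.7% of those of all tested genes. A log2 fold change of 1 or more was seen for 8 of 10 (all but Pdgfrb and Fap), beside 2.62% of all genes. The median log2 fold change over the 10 was 1.40, against 0.0132 over all genes tested, with log2 fold changes on the log2(TPM + 1) scale. Every marker was at or above 1 TPM in each library, so the filter on low values removed none. The groups did not overlap for 9 of 10, Lum being the exception, while 15.7% of all tested genes lay wholly above the shControl range (2232 genes, with 1103 wholly below). After scaling by median ratios the count was 8 of 10, beside 11.5% of all genes (1637 above and 1728 below). None of the 10 passed at an adjusted p under 0.05 (limma, Benjamini-Hochberg over all genes), where 1 gene, or 0.00704%, did. That gene was not St3gal3, which was lower by a log2 fold change of -0.80 (SE 0.11, limma adjusted p = 0.348). The adjusted p ran from 0.380 to 0.412 for the markers in that limma fit. At an unadjusted p under 0.05 there were 8 of 10, all higher, beside 9.19% of all genes, and the remaining pair was Acta2 and Tagln. That count of 8 was 5, 3 and 6 without shControl 1, 2 and 3, where the share of all genes was 5.73%, 4.41% and 4.76%. It was 9, 8 and 9 without shST3GAL3 1, 2 and 3, beside 8.54%, 7.67% and 12.7% of all genes. In exact two-sided permutation tests p was 0.2 for Lum and 0.1 for each of the other 9, and no split of 3 against 3 samples can give less than 0.1.

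The size of the difference varied from tumour to tumour. Against the shControl mean, the median log2 ratio over the 10 markers was 2.71 in shST3GAL3 1, 0.91 in shST3GAL3 2 and 0.50 in shST3GAL3 3. In the shControl tumours it was 0.14, -0.40 and 0.18. At least 2-fold the shControl mean was reached by 10 markers in shST3GAL3 1, by 4 in shST3GAL3 2 (Pdgfra, Dcn, Lum and Pdpn) and by 0 in shST3GAL3 3, beside 10.3%, 3.46% and 1.5% of all tested genes. Without shST3GAL3 1 the median log2 fold change of the 10 was 0.67, and the shST3GAL3 and shControl values still did not overlap for 9 of 10, beside 21.2% of all genes in that comparison. shControl 2 had the lowest value of all 6 libraries for each marker (for Fap tied with shControl 1), which held for 17.9% of all genes. The 10 markers summed to 573.2, 357.26 and 562.43 TPM in the shControl tumours and to 2540.63, 934.02 and 682.71 TPM in the shST3GAL3 tumours.

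**Figure D1:**
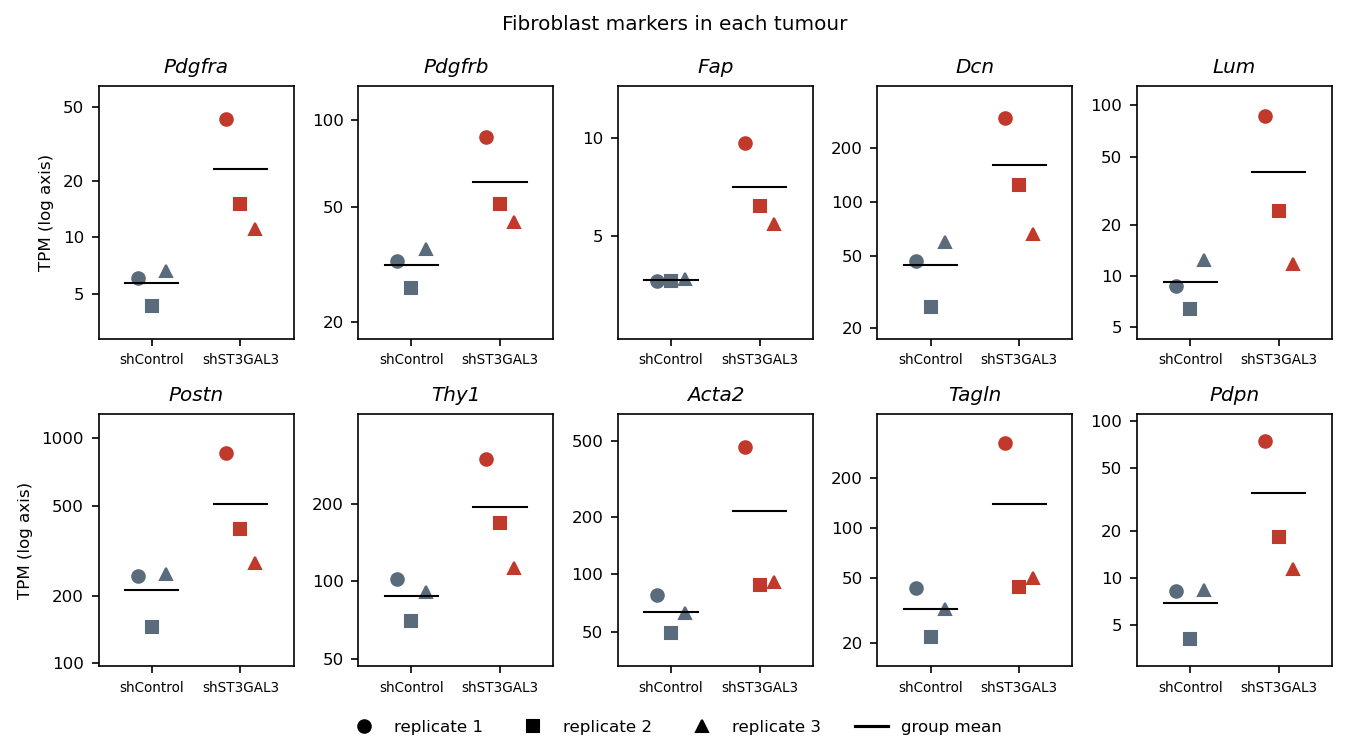
TPM (log axis, its range set per gene) of the 10 fibroblast markers in the 3 shControl and 3 shST3GAL3 tumours, with a symbol per replicate and a line at each group mean. The circle of shST3GAL3 1 is the highest point in all 10 panels, and the groups overlap for Lum, where shST3GAL3 3 (11.75 TPM) lies under shControl 3 (12.35 TPM).

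The platelet-derived growth factor receptor genes were both higher, Pdgfra by more than Pdgfrb. Pdgfra, the receptor that marks most tissue fibroblasts, stood at 6.09, 4.30 and 6.60 TPM in shControl 1 to 3, against 43.10, 15.12 and 11.14 TPM in shST3GAL3 1 to 3. Each shST3GAL3 tumour thus lay above each shControl tumour, the lowest of them 1.69-fold above the highest control. The means were 5.66 ± 1.21 and 23.1 ± 17.4 TPM (SD, n = 3), and the log2 fold change was 1.64 (SE 0.46, limma adjusted p = 0.380), or 1.09 without shST3GAL3 1. Pdgfrb, the receptor shared by fibroblasts and pericytes, stood at 32.40, 26.21 and 35.62 TPM in the shControl tumours and at 87.11, 50.88 and 44.13 TPM in the shST3GAL3 tumours. Its groups did not overlap either, and its log2 fold change was 0.88 (SE 0.26, limma adjusted p = 0.380), or 0.59 without shST3GAL3 1.

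Within each tumour Pdgfrb was the more abundant receptor transcript, per length. The ratio of Pdgfrb to Pdgfra TPM was 5.32, 6.10 and 5.40 in shControl 1, 2 and 3, and 2.02, 3.37 and 3.96 in shST3GAL3 1 to 3. The ratios of the groups did not overlap, and the lowest was that of shST3GAL3 1. For 10 pericyte markers the median log2 fold change was 0.27, and 0 passed over all genes. Rgs5, a defining pericyte gene, stood at 19.66 to 30.11 TPM in the shControl tumours and at 45.09, 22.66 and 16.24 TPM in shST3GAL3 1, 2 and 3, with overlap. The genes among these 10 with the smallest p were Ndufa4l2 (log2 fold change 0.54), Anpep (0.68) and Mcam (0.53). These were the only 3 of the 10 without overlap, beside 15.7% of all tested genes wholly above the shControl range. The pericyte list summed to 175.12 to 187.62 TPM in shControl and to 202.24 to 330.1 TPM in shST3GAL3 tumours, and its part in the Pdgfrb values was not tested.

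Ligands of these receptors are made by many cell types, and none of those tested separated the groups. Pdgfa stood at 29.0 ± 0.755 TPM in shControl and 36.6 ± 10.9 TPM in shST3GAL3 tumours (log2 fold change 0.29, SE 0.19), Pdgfb at 22.9 ± 2.96 and 27.1 ± 5.12 TPM (0.23, SE 0.16), and Pdgfc at 10.9 ± 1.74 and 12.04 ± 2.66 TPM (0.12, SE 0.18). The groups overlapped for all 3 and 0 passed over all genes. Pdgfd did not pass the filter and stood at 0.62 to 0.79 TPM in the shControl tumours and at 4.84, 1.15 and 0.69 TPM in shST3GAL3 1 to 3. Pdgfra lies between Gsx2 and Kit among the protein-coding genes of RefSeq (GRCm38.p6), with Kdr next, and Pdgfrb lies beside Csf1r. Kit, Kdr and Csf1r are receptor kinase genes of other cell types, among them mast cells, endothelium and macrophages. All 3 had higher means, with log2 fold changes of 0.79 for Kit, 1.09 for Kdr and 0.95 for Csf1r, and none passed over all genes.

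Fap, which encodes a surface peptidase of activated fibroblasts, was the least abundant of the 10. It stood at 3.64, 3.64 and 3.71 TPM in shControl 1 to 3, against 9.66, 6.22 and 5.46 TPM in shST3GAL3 1 to 3. Its control values had a coefficient of variation of 1.1%, the smallest of the 10, and the groups did not overlap. The log2 fold change was 0.76 (SE 0.20, limma adjusted p = 0.380), and 0.55 without shST3GAL3 1. Of the related peptidase genes Dpp4, Dpp8, Dpp9, Prep and Dpp7, 0 of 5 passed and the median log2 fold change was 0.12. Dpp4, a near neighbour of Fap on chromosome 2 with Gcg between them, stood at 1.14 ± 0.0721 and 1.95 ± 1.00 TPM, with overlap.

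Decorin and lumican, small leucine-rich proteoglycans that bind collagen fibrils, were among the markers with the larger differences. Dcn stood at 46.94, 26.16 and 60.31 TPM in shControl 1 to 3, against 293.95, 123.70 and 66.68 TPM in shST3GAL3 1 to 3. The lowest shST3GAL3 value was 1.11-fold the highest shControl value, so the separation was narrow. Its log2 fold change was 1.65 (SE 0.55, limma adjusted p = 0.380), or 1.09 without shST3GAL3 1. Lum stood at 8.71, 6.42 and 12.35 TPM in the shControl tumours and at 86.68, 24.06 and 11.75 TPM in the shST3GAL3 tumours. Here shST3GAL3 3 lay within the control range, and shST3GAL3 1 was 7.38-fold above shST3GAL3 3. The log2 fold change of Lum was 1.62 (SE 0.66, limma adjusted p = 0.384), or 0.86 without shST3GAL3 1.

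Dcn and Lum are neighbours on chromosome 10, followed by the proteoglycan genes Kera and Epyc (RefSeq, GRCm38.p6). Kera was listed at 0 in all 6 tumours and Epyc at no more than 0.11 TPM. The ratio of Dcn to Lum was 4.07 to 5.39 in the shControl tumours and 3.39, 5.14 and 5.67 in shST3GAL3 1, 2 and 3, with overlap. Of 11 other genes of the proteoglycan family, 7 were tested, all 7 had positive log2 fold changes (median 0.67), and 0 passed over all genes. Without shST3GAL3 1 that median was 0.21. Bgn, which encodes biglycan, was the most abundant of them, at 972 ± 77.5 and 1629 ± 682 TPM (log2 fold change 0.67, SE 0.26), without overlap. Prelp also showed no overlap, at 2.14 ± 0.453 and 10.4 ± 9.99 TPM. These were 2 of the 7 tested, beside 15.7% of all tested genes wholly above the shControl range. For Fmod, Ogn, Aspn, Podn and Ecm2 the groups overlapped.

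Postn, which encodes periostin, was the most abundant of the 10 in both groups. It stood at 244.16, 145.35 and 249.18 TPM in shControl 1 to 3, against 857.78, 394.35 and 278.20 TPM in shST3GAL3 1 to 3. The values did not overlap, with 1.12-fold between the nearest pair. The log2 fold change was 1.13 (SE 0.42, limma adjusted p = 0.380), or 0.68 without shST3GAL3 1. The ratio of Postn to Dcn was 5.20, 5.56 and 4.13 in the shControl tumours and 2.92, 3.19 and 4.17 in the shST3GAL3 tumours, with a small overlap.

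Of 21 matricellular and elastic matrix genes, 19 had positive log2 fold changes, with a median of 1.23, and 0 passed over all genes. The median was 0.62 without shST3GAL3 1. Thbs2, a matricellular gene, stood at 41.9 ± 11.9 TPM in shControl and 184 ± 173 TPM in shST3GAL3 tumours, and the crosslinking enzyme gene Loxl1 at 10.99 ± 1.67 and 46.2 ± 41.1 TPM. Eln, which encodes elastin, stood at 1.41 ± 0.618 and 5.38 ± 3.18 TPM, and Tgfbi, the closest relative of Postn in the list, at 107 ± 13.2 and 198 ± 83.2 TPM. Over the list, 12 of 21 genes lay wholly above the shControl range, beside 15.7% of all tested genes. Thbs2, Loxl1, Eln and Tgfbi were among the 12, and had the smallest p of the list. Against them stood Efemp1, at 57.1 ± 10.3 and 41.8 ± 5.69 TPM, and Loxl2, with log2 fold changes of -0.43 and -0.02. These were the 2 genes of the 21 with negative values and are named for that reason, after their values were seen.

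Thy1, a surface glycoprotein of fibroblasts and, in mice, of T cells, stood at 102.28, 69.98 and 91.01 TPM in shControl 1 to 3, against 300.30, 169.25 and 113.31 TPM in shST3GAL3 1 to 3. The groups did not overlap, and the log2 fold change was 1.04 (SE 0.34, limma adjusted p = 0.380), or 0.67 without shST3GAL3 1. The 9 T cell genes also had positive log2 fold changes, with a median of 0.70 (0.57 without shST3GAL3 1), and 0 passed over all genes. Their sum was 70.52 to 95.04 TPM in shControl and 183.32, 162.75 and 88.2 TPM in shST3GAL3 1 to 3. The part of T cells in the Thy1 values was not tested.

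Pdpn, which encodes podoplanin, a surface mucin-type glycoprotein, stood at 8.22, 4.08 and 8.36 TPM in the shControl tumours and at 74.29, 18.12 and 11.33 TPM in the shST3GAL3 tumours, without overlap. The log2 fold change was 1.78 (SE 0.65, limma adjusted p = 0.380), the largest of the 10 over all tumours, or 1.02 without shST3GAL3 1, where Dcn and Pdgfra (both 1.09) were larger. Of the lymphatic endothelial markers, Prox1, the defining transcription factor, stood at 0.32 TPM or less in every tumour. Lyve1 stood at 1.20 ± 0.214 and 4.78 ± 4.32 TPM and Flt4 at 0.81 ± 0.252 and 2.20 ± 0.956 TPM, both without overlap. All 5 lymphatic genes together stood at 3.01 to 15.18 TPM in shControl and 17.67 to 33.81 TPM in shST3GAL3 tumours. Ccl21a made up most of the highest sum of each group, at 12.29 TPM in shControl 3 and 28.23 TPM in shST3GAL3 2. Its own values overlapped between the groups. Of 8 mesothelial markers, Muc16 was listed at 0 throughout and Upk3b, Upk1b, Lrrn4 and Gpm6a stayed under 1 TPM. Msln, the mesothelin gene, stood at 13.64 to 19.78 TPM with a log2 fold change of 0.01, and Wt1 stood at 0.49 to 1.48 TPM in shControl and 3.01, 1.18 and 0.58 TPM in shST3GAL3 tumours (0.34), both with overlap. Krt19, shared by mesothelium and epithelial tumour cells, was lower in the shST3GAL3 tumours (965 ± 95.2 and 642 ± 230 TPM), without overlap, and made up most of the list's sum of 901.99 to 1088.26 TPM in shControl and 401.63 to 847.98 TPM in shST3GAL3 tumours.

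The contractile pair was high mainly in shST3GAL3 1. Acta2, which encodes smooth muscle actin, stood at 77.56, 49.39 and 62.85 TPM in shControl 1 to 3, against 460.35, 88.19 and 91.26 TPM in shST3GAL3 1 to 3. Tagln, which encodes the actin-binding protein transgelin, stood at 43.20, 21.73 and 32.44 TPM in the shControl tumours and at 327.41, 44.13 and 49.45 TPM in the shST3GAL3 tumours. For both, shST3GAL3 2 and 3 lay just above the highest control while shST3GAL3 1 was several times higher, 5.22-fold above shST3GAL3 2 for Acta2 and 7.42-fold for Tagln. The nearest values of the Tagln groups were 1.02-fold apart, and they overlapped once the libraries were scaled by median ratios. The log2 fold changes were 1.30 for Acta2 (SE 0.63, limma adjusted p = 0.402) and 1.49 for Tagln (SE 0.75, limma adjusted p = 0.412), each with a 95% interval that included 0. Without shST3GAL3 1 they were 0.52 and 0.56. The other 8 markers ran in the order shST3GAL3 1, 2, 3, an order found for 20.8% of all genes, while Acta2 and Tagln had shST3GAL3 3 slightly above shST3GAL3 2.

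**Figure D2:**
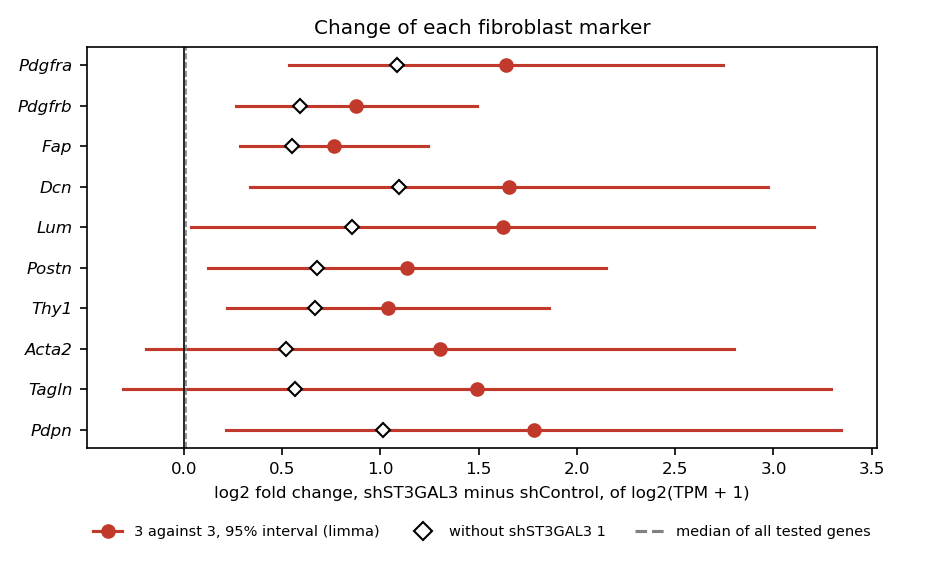
Log2 fold change of each marker (shST3GAL3 minus shControl, log2(TPM + 1) scale) with its 95% limma interval over 3 against 3 tumours (filled points and bars), and the same without shST3GAL3 1 (open diamonds). All 10 points lie right of 0, the intervals of Acta2 and Tagln include 0, and each diamond lies left of its filled point.

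The upstream sequence of Acta2 is shown since serum response factor and the TEAD factors, known regulators of contractile genes, act through short motifs, and that of Pdgfra is shown beside it as a marker with the graded pattern. Both are the 250 bases before the transcription start, 5′ to 3′, from RefSeq promoters on GRCm38.p6, a build other than the GRCm39 of the expression files. They span chr19:34255374-34255623 on the minus strand and chr5:75152001-75152250 on the plus strand. Capitals mark GGAATG, the core of the TEAD motif, and CArG boxes, the motif of serum response factor, with at most 1 letter off.
Acta2: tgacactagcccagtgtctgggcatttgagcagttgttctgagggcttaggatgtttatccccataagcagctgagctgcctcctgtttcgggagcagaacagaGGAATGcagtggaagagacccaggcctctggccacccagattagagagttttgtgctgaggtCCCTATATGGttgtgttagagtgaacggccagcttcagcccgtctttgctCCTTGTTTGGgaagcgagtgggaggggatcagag
Pdgfra: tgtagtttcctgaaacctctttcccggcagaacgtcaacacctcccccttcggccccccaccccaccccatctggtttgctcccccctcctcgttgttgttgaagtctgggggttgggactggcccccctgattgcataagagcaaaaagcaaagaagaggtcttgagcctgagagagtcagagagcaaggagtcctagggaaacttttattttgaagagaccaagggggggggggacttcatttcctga
Acta2 held GGAATG once and 2 near CArG boxes, CCCTATATGG and CCTTGTTTGG, and Pdgfra held neither. On both strands, GGAATG was found in 12.6% of all 32851 promoters of this length, a near CArG box in 18.6% and an exact CArG box in 1.47%. Promoters were found in the table for 4 of the 10 markers, Acta2, Pdgfra, Pdpn and Postn, and none of these held an exact CArG box or the AP-1 motif TGANTCA, which was in 6.75% of all promoters. The near match of the CArG box was added after the sequences had been seen.

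Genes close in sequence could affect these values in the authors' estimation. Of all runs of 50 bases in the Acta2 transcripts of GENCODE M21, 7 of 2146, or 0.326%, also occur in another gene, Actg1 and actin pseudogenes among them. For Tagln the number was 0 of 1575. Tagln overlaps Pcsk7 on the opposite strand in exons, and the strand setting is not given in the sources used here. Pcsk7 stood at 28.7 ± 0.924 TPM in shControl and 27.4 ± 5.19 TPM in shST3GAL3 tumours, with its lowest values in shST3GAL3 1 and 2 (23.75 and 25.13 TPM).

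A minority of the other genes of the smooth muscle contractile apparatus stood out, mainly in shST3GAL3 1. Of the 14 listed, 11 were tested, their median log2 fold change was 0.27, and 0 passed over all genes. That median was 0.03 without shST3GAL3 1. At least 2-fold the shControl mean was reached by 4 of the 11 in shST3GAL3 1, by 1 in shST3GAL3 2 and by 0 in shST3GAL3 3. The shares of all tested genes were 10.3%, 3.46% and 1.5%. The 4 were Actg2, Myh11, Cnn1 and Myl9, at 12.8-fold, 9.69-fold, 13.1-fold and 10.2-fold. In shST3GAL3 2 these stood at 0.947-fold, 1.63-fold, 0.869-fold and 1.56-fold. Cnn1, which encodes calponin and is a late marker of smooth muscle, stood at 1.84, 1.85 and 2.04 TPM in the shControl tumours and at 24.97, 1.66 and 2.03 TPM in the shST3GAL3 tumours. Myh11, the smooth muscle myosin gene, stood at 9.75 TPM in shST3GAL3 1 and at no more than 1.64 TPM elsewhere. Broadly expressed genes of the list were nearly level, with Tpm2 at -0.06 and Tpm1 at 0.15 on the log2 scale, and Smtn had a lower mean in the shST3GAL3 tumours (169 ± 17.1 and 136 ± 15.8 TPM). Of the 11 tested genes, 8 were highest in shST3GAL3 1, beside 28.7% of all tested genes. Tpm2 and Smtn had their lowest values of all libraries in that tumour, at 293.44 and 120.27 TPM. Srf, the gene of serum response factor, stood at 26.1 ± 2.06 and 31.7 ± 2.68 TPM without overlap. The naming of Myh11, Tpm1 and Tpm2 followed a look at their values.

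The single gene of the contractile list past 2-fold in shST3GAL3 2 was Des, a gene of all muscle types, at 23.75 TPM. All 8 skeletal muscle genes were at least 2-fold the shControl mean in shST3GAL3 2, beside 3.46% of all tested genes. In shST3GAL3 1 this held for 0 of them, beside 10.3% of all tested genes. Their sum was 122.21, 5.4 and 25.62 TPM in shControl 1, 2 and 3 and 7.2, 406.22 and 79.64 TPM in shST3GAL3 1 to 3. The fibroblast markers and the sum of the smooth muscle list (1495.5 TPM) were highest in shST3GAL3 1, where the skeletal muscle sum was low. In shControl 2, where each fibroblast marker was lowest (Fap tied with shControl 1), the skeletal muscle sum was the lowest of all.

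**Figure D3:**
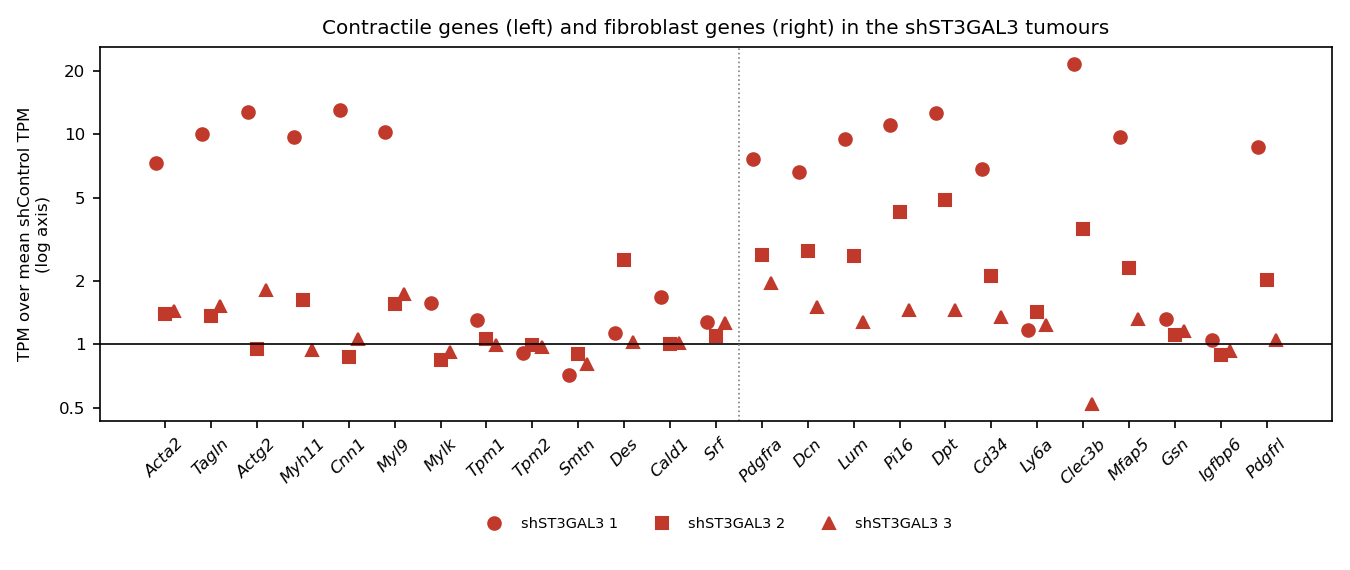
TPM of each gene over its shControl mean (log axis) in shST3GAL3 1 (circles), 2 (squares) and 3 (triangles). Left of the dotted line stand Acta2, Tagln and the tested smooth muscle list, right of it Pdgfra, Dcn, Lum and the tested universal fibroblast list. The markers Pdgfrb, Fap, Postn, Thy1 and Pdpn are not drawn. In shST3GAL3 2 these stood at 1.62-fold, 1.70-fold, 1.85-fold, 1.93-fold and 2.63-fold. Of the list genes, 4 of 11 on the left and 6 of 9 on the right reach 2-fold in shST3GAL3 1, and 1 and 6 do so in shST3GAL3 2. Of all tested genes, 10.3% reach 2-fold in shST3GAL3 1 and 3.46% in shST3GAL3 2.

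Markers of resting fibroblasts were mixed. Of 10 genes shared by fibroblasts of many tissues, 9 were tested, 8 had positive log2 fold changes (median 1.34), and 0 passed over all genes. The median was 0.56 without shST3GAL3 1. The same number, 6 of 9, reached 2-fold in shST3GAL3 1 and in shST3GAL3 2, namely Pi16, Dpt, Cd34, Clec3b, Mfap5 and Pdgfrl in both, and 0 did in shST3GAL3 3. Of all tested genes, 10.3%, 3.46% and 1.5% did so in shST3GAL3 1, 2 and 3. Dpt, the dermatopontin gene, stood at 3.27, 2.06 and 2.77 TPM in the shControl tumours and at 34.11, 13.21 and 3.95 TPM in the shST3GAL3 tumours. Pi16, a marker of adventitial fibroblasts, stood at 3.43, 2.27 and 2.64 TPM and at 30.82, 11.91 and 4.04 TPM. For both, all shST3GAL3 tumours lay above all shControl tumours. The remaining 3 tested genes stayed under 2-fold in each tumour. Ly6a, also expressed by many other cells, stood at 513 ± 29.9 and 655 ± 69.6 TPM and was highest in shST3GAL3 2. Gsn had a log2 fold change of 0.25, Igfbp6 one of -0.07, and Tcf21 was listed at 0 in all 6 tumours.

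Over 12 tested genes of inflammatory fibroblasts the median log2 fold change was 0.61, with 0 passing over all genes. It was 0.24 without shST3GAL3 1 and 0.33 without shControl 2. The groups did not overlap for 3 of the 12, beside the 15.7% of all genes, and these 3 are described next. Saa3, an acute phase gene, stood at 9.07, 11.06 and 7.43 TPM in the shControl tumours and at 413.33, 46.54 and 28.74 TPM in the shST3GAL3 tumours. Cxcl12, a chemokine gene of stromal cells, stood at 8.46, 5.37 and 7.18 TPM and at 104.65, 30.60 and 12.57 TPM, and complement C3 at 60.6 ± 4.80 and 187 ± 135 TPM. Il6 and Lif, cytokine genes by which such fibroblasts are often defined, were near level, with log2 fold changes of 0.02 and -0.001, and are named after their values were seen.

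Markers of endothelium and macrophages had positive log2 fold changes, and 0 of either list passed over all genes. The median was 1.03 for 9 blood endothelial genes (0.64 without shST3GAL3 1), 8 of them without overlap, with sums of 56.72 to 78.05 TPM in shControl and 278.33, 121.88 and 104.28 TPM in shST3GAL3 1 to 3. The 8 macrophage genes had a median of 0.54 (0.32 without shST3GAL3 1), 4 of them without overlap, with overlapping sums of 1095.5 to 1305.96 and 1301.74 to 2313.88 TPM. Both were highest in shST3GAL3 1 gene by gene, 9 of 9 and 8 of 8, beside 28.7% of all tested genes. The genes of both lists without overlap lay wholly above the shControl range, as did 15.7% of all tested genes. Of the adipocyte markers, Fabp4, also an endothelial gene, stood at 67.21, 37.10 and 11.82 TPM in shST3GAL3 1, 2 and 3 and at 6.83 to 11.25 TPM in shControl, and had no overlap. Adipoq, a defining adipocyte gene under the filter, stood at 0.23, 0 and 0.22 TPM in shControl 1 to 3, against 3.04, 2.74 and 0.33 TPM in shST3GAL3 1 to 3. Plin1, Cidec and Lep also failed the filter and had no overlap. Their values were near the floor, with Cidec at no more than 2.37 TPM, Plin1 under 1 TPM and Lep at 0.24 TPM or less. Without the filter, 10.7% of 28218 genes lay wholly above the shControl range. Adipoq, Plin1, Cidec and Lep are named after their values were seen. Lipe went the other way (log2 fold change -0.14). It stood at 16.55 ± 1.28 TPM in shControl and 14.86 ± 0.63 TPM in shST3GAL3 tumours, without overlap. Plin4 (0.22) and Retn, which stayed under 1 TPM, overlapped between the groups. Fabp4, Lipe and Plin4 were the 3 adipocyte genes tested. Their median was 0.22, and 0 passed over all genes. Of the 9 epithelial tumour cell genes 4 were tested, and Krt8 and Krt18 stood at 1223 ± 69.8 and 1190 ± 100 TPM in shControl and at 993 ± 251 and 906 ± 249 TPM in shST3GAL3 tumours, with overlap. The other two, Cdh1 and Esr1, had log2 fold changes of 0.46 and 0.23, also with overlap. Epcam and Cldn4, defining epithelial genes, stood at no more than 1.17 TPM and at 0. The part of these cell types in the fibroblast values was not tested.

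**Figure D4:**
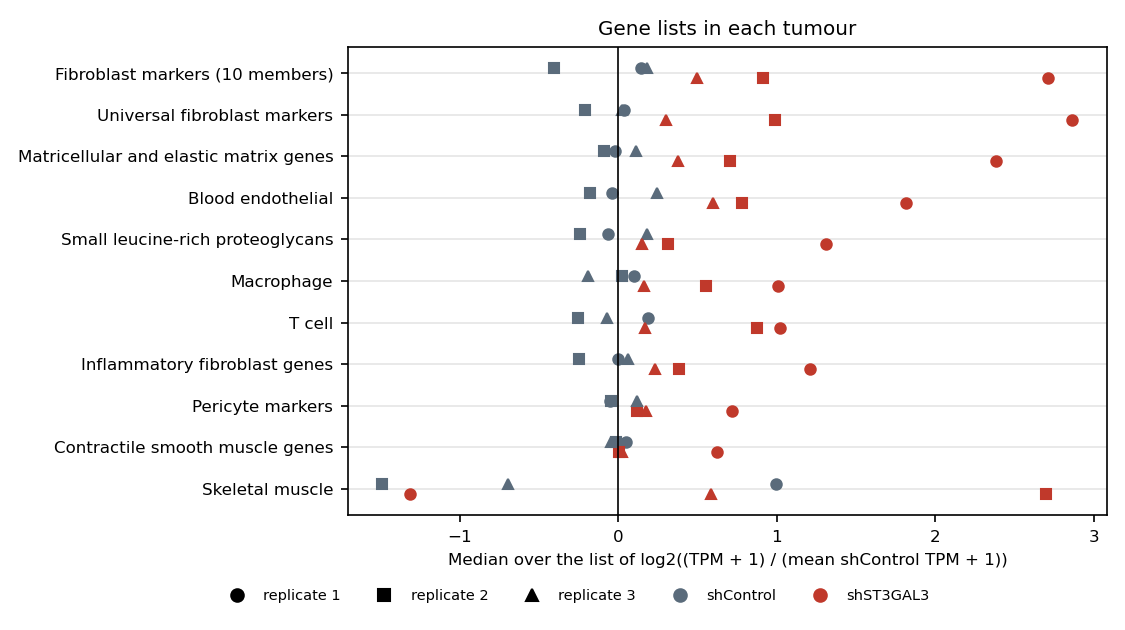
Median over each gene list of log2((TPM + 1) / (mean shControl TPM + 1)) in each tumour, with a symbol per replicate, grey for shControl and red for shST3GAL3. The 10 fibroblast markers stand at 2.71, 0.91 and 0.50 in shST3GAL3 1, 2 and 3, while the skeletal muscle list is highest in shST3GAL3 2 (2.70) and low in shST3GAL3 1 (-1.31).

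The order of the levels, per length, was nearly the same in both groups. In the shControl tumours it ran Postn, Thy1, Acta2, Dcn, Tagln, Pdgfrb, Lum, Pdpn, Pdgfra and Fap, from 213 ± 58.6 to 3.66 ± 0.0404 TPM. In that order 3 steps showed no overlap between neighbours, namely Postn over Thy1, Pdgfrb over Lum and Pdgfra over Fap. In the shST3GAL3 tumours Acta2 stood above Thy1, through shST3GAL3 1 alone, and the remaining genes kept their places, from 510 ± 307 TPM for Postn to 7.11 ± 2.24 TPM for Fap. Only the step from Pdgfra to Fap there showed no overlap. The spread within the shST3GAL3 group, as a coefficient of variation, ran from 31.5% for Fap to 115% for Tagln, and within the shControl group from 1.1% for Fap to 38.7% for Dcn.

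**Figure D5:**
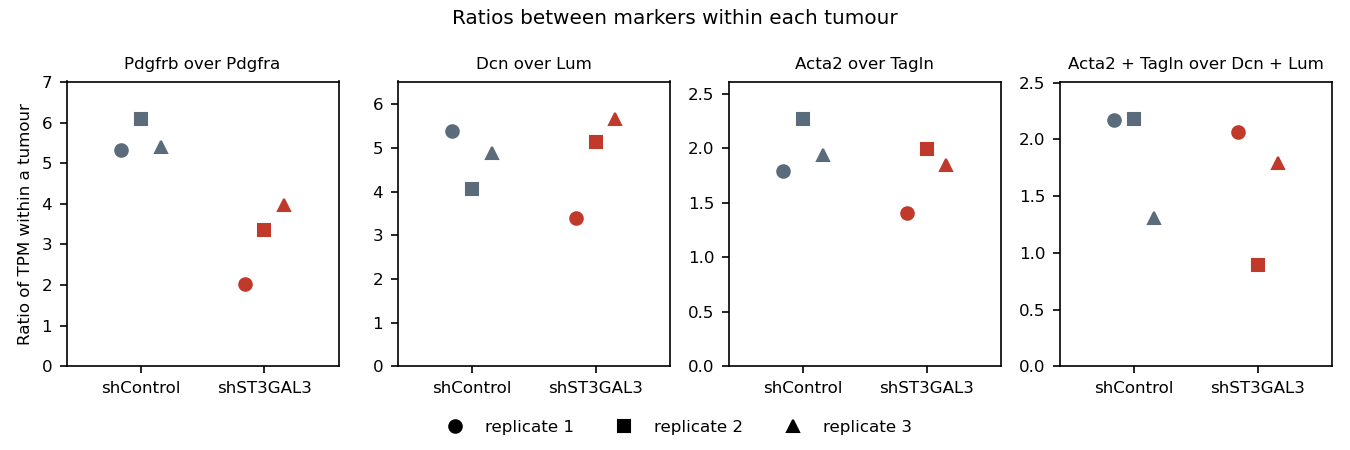
Ratios of TPM between markers within each tumour, with a symbol per replicate. The ratio of Pdgfrb to Pdgfra lies at 5.32 to 6.10 in shControl and at 2.02 to 3.96 in shST3GAL3 tumours, and the other 3 ratios overlap between the groups.

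The balance of contractile to proteoglycan transcripts did not separate the groups. Acta2 and Tagln together stood at 2.17, 2.18 and 1.31 times Dcn and Lum together in shControl 1, 2 and 3, and at 2.07, 0.896 and 1.79 times in shST3GAL3 1 to 3. The ratio of shST3GAL3 2 was the lowest of the 6. The ratio of Acta2 to Tagln was 1.80 to 2.27 in shControl and 1.41, 2.00 and 1.85 in shST3GAL3 1, 2 and 3, also with overlap.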

How the data were processed

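The values were deposited by the authors as TPM per gene, 1 table per tumour, with 57462 genes each, 482 of them without an Ensembl ID. Fastp, HISAT and RSEM and the build GRCm39 are named, per the submitters' processing notes, with no versions. TPM keeps no read depth, so no counting error or count model could be used, and a large rise of some transcripts lowers all others. RNA was extracted with TRIzol and treated with DNase I, per the labels' protocols. Groups were taken from the sample titles. Log2(TPM + 1) of genes at 1 TPM or more in at least 3 libraries (14207 genes) was fitted with limma 3.58.1 (R 4.3.3) with a mean-variance trend, and p-values were adjusted by Benjamini-Hochberg over all of them, with a threshold of 0.05. The procedure was tested on simulated data. From each gene list up to 4 tested genes with the smallest p were named, with related genes of the markers, all PDGF ligands and the 8 genes most like the markers, and other names were added after their values were seen. The markers and lists were chosen with earlier results of these data known, and list members were not tested as sets. Alternatives were another pseudocount, filters, scalings, library weights, a replicate block and leaving out each tumour.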

Additional observations from a re-analysis of the deposited data

How the results depend on the processing

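Under every alternative run, all 10 markers kept a positive log2 fold change and 0 passed at an adjusted p under 0.05 by limma, where the lowest adjusted p of a marker was 0.138 with library weights and 0.155 without shST3GAL3 3. Weights estimated from the data gave shST3GAL3 1 the least weight, 0.204, and a median log2 fold change of 0.84. With these weights St3gal3 had a limma adjusted p of 0.0337, and it passed under no other setting. The median with a replicate block was 1.40 and 0 markers passed. Same-numbered tumours correlated at 0.0145, -0.0799 and 0.0402 in their deviations, so the numbers were not taken to pair them. Medians of short or mixed lists changed sign. For the mesothelial list the median was -0.023 after scaling by median ratios, -0.056 after quantile normalization and -0.119 to 0.038 when 1 tumour was left out. For the epithelial list it was 0.017 with a pseudocount of 0.1 and 0.11 without a filter. For the skeletal muscle list it ran from -0.074 to 1.97 when 1 tumour was left out, the lowest without shST3GAL3 2. The cause was not tested. The limits are 3 tumours a group, an unknown depth and bulk tissue, and shST3GAL3 1 carries much of the size of each difference.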

Other observations

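Transcription factors of fibroblasts had a smaller median log2 fold change than the 10 markers, a difference that was not tested. Of 12 listed, 10 were tested, 9 had positive log2 fold changes (median 0.34), and 0 passed over all genes by limma. Runx1, a regulator of mesenchymal and blood cells, stood at 31.4 ± 1.13 TPM in shControl and 39.6 ± 2.68 TPM in shST3GAL3 tumours (SD, n = 3). Prrx1, a mesenchymal homeobox gene, stood at 16.3 ± 1.36 and 28.7 ± 9.31 TPM, and Snai2 at 1.54 ± 0.0866 and 3.96 ± 2.49 TPM. Over the list the groups did not overlap for 5 of the 10, all higher, beside 15.7% of all tested genes. The 5 were these 3, which had the smallest p of the list, with Osr1 and Twist2.

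The genes whose log2 values ran closest to the mean standardised level of the 10 markers over the 6 tumours were S1pr1, Slfn2, Laptm4a, Akap12, Atrnl1, Adamts15, Pmepa1 and Rnase4, with Pearson's r from 0.9977 to 0.9995. The 6 points share the separation of shST3GAL3 1, and 805 of the tested genes, or 5.67%, had an r of at least 0.95. S1pr1, a sphingosine phosphate receptor gene expressed by endothelium and lymphocytes, stood at 3.89, 2.42 and 3.84 TPM in shControl 1 to 3, against 16.26, 6.64 and 5.11 TPM in shST3GAL3 1, 2 and 3.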
